A study of Mus musculus with 12 samples.

Results

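The genes described here are 9 genes that mark excitatory neurons of the forebrain, chosen by name from 20504 genes counted on coding sequence (CDS) and 23352 genes counted on exons. They fall into 5 abundant neuronal markers (Nrgn, Hpca, Crym, Chn1 and Rbfox3) and 4 cortical transcription factors (Neurod6, Neurod2, Tbr1 and Mef2c). All 9 were present in both tables and passed the count filter in each comparison. The data were 12 libraries from 6 Camk2a-RiboTag mice, adults of 3 months, with 2 mice in every group. In these mice Cre under the Camk2a promoter switches on a hemagglutinin (HA) tag on the ribosomal protein Rpl22, so that polysomes of Camk2a-expressing neurons can be pulled down from whole tissue. Mice A and B are labelled untreated and, by the study's methods, were gavaged with the vehicle Captisol. The other pair, mice C and D, was given 100 mg/kg of AZD-8055 by oral gavage and sacrificed 1 h later. This compound competes with ATP for the kinase mTOR. Each of these 4 mice gave a poly(A) RNA-Seq library and a ribosome footprint library, while mice E and F, labelled untreated, each gave RNA-Seq of the homogenate (input) and of the HA immunoprecipitate (IP). All 6 mice, controls included, carry the RiboTag allele and the Cre. By the study's methods, the tissue of the vehicle and AZD-8055 mice was the right frontal lobe. For the RiboTag comparison the study speaks of homogenized brain tissue. The footprints came from the whole homogenate and not from tagged ribosomes, so footprint values average over all cells that express a gene.

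Excitatory projection neurons of the cortex and hippocampus acquire their identity through a cascade of transcription factors and then express a set of abundant cytoplasmic and synaptic proteins. Nrgn encodes neurogranin, a postsynaptic protein that binds calmodulin. Hpca encodes hippocalcin, a neuronal calcium sensor. Crym encodes a crystallin family protein that binds thyroid hormone, and Chn1 encodes a Rac GTPase-activating protein of the chimaerin family. Rbfox3, the NeuN antigen, is a splicing regulator found in most neurons, inhibitory ones included. Neurod6 and Neurod2 are basic helix-loop-helix factors of postmitotic excitatory neurons, Tbr1 is a T-box factor of deep cortical layers, and Mef2c is a MADS-box factor that acts in neurons and also in microglia, endothelium and muscle. In the RefSeq annotation of GRCm38.p6, the same build as mm10, Nrgn lies at chr9:37544493-37552745, Hpca at chr4:129111570-129125919, Crym at chr7:120186380-120201989, Chn1 at chr2:73610660-73775367 and Rbfox3 at chr11:118489760-118911597. Neurod6 lies at chr6:55677818-55681263, Neurod2 at chr11:98325415-98329645, Tbr1 at chr2:61802863-61814114 and Mef2c at chr13:83504017-83667079, and the counts cover the exons or CDS of each gene.

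NeuroD factors bind DNA at E-boxes, and the sequence just upstream of the transcription start is shown for both NeuroD members and for Nrgn, the member with the highest RiboTag enrichment below. Each run holds 250 bases that end at the base before the annotated RefSeq start (GRCm38.p6), 5′ to 3′ on the gene's own strand, with every E-box (CANNTG, which reads the same on both strands) in capitals. They lie at chr9:37552746-37552995 for Nrgn, chr6:55681264-55681513 for Neurod6 and chr11:98329646-98329895 for Neurod2, all on the minus strand.
Nrgn: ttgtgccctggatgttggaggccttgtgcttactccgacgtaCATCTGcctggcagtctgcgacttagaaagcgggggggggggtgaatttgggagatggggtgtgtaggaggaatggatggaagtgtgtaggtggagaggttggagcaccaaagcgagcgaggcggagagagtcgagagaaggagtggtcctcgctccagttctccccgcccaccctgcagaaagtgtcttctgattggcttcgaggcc
Neurod6: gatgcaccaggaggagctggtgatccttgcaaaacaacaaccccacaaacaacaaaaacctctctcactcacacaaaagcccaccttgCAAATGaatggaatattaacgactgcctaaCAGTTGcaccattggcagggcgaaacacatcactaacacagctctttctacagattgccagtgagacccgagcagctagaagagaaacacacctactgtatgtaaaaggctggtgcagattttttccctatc
Neurod2: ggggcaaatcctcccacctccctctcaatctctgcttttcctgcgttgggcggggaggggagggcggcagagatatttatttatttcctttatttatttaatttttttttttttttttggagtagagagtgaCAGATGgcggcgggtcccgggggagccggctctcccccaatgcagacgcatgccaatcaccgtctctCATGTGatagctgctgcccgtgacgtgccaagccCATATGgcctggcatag
The Nrgn window held 1 E-box, the Neurod6 window 2 and the Neurod2 window 3. An E-box is common, since 66.2% of 32851 upstream windows of this length held at least 1. The form CAGATG or its reverse complement CATCTG, a subset of the E-box, was found in 14.4% of windows and was present upstream of Nrgn, of Neurod2 and of 1 of the 3 annotated starts of Mef2c. The form CATATG, in 3.46% of windows, was present upstream of Neurod2 and of another start of Mef2c. These matches describe the letters in the windows and say nothing about binding.

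The first comparison was of IP with input in mice E and F, which asks which transcripts were loaded on ribosomes of Camk2a-expressing neurons relative to the whole tissue. All 9 genes were higher in the IP on exon counts by edgeR's quasi-likelihood F-test (two-sided, Benjamini-Hochberg adjusted p under 0.05 over 13254 genes). By the same rule 33.7% of all genes were higher and 35.7% lower, so that a call alone is common here. With a fold change over 2 added, 11.7% of all genes were higher, and Nrgn, Hpca, Crym, Neurod2 and Tbr1 passed among the 9 genes. The median log2 change was 1.38 over the 5 abundant markers and 0.92 over the 4 transcription factors, against −0.03 over all genes. The values per library below are exon counts divided by DESeq2 size factors (normalized counts), which are not divided by length and are compared between libraries only.

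Nrgn had 22860 and 20810 normalized counts in the inputs of mice E and F against 101800 and 99460 in the IPs. It was 4.25-fold higher in the IP (log2 change 2.09, SE 0.087, edgeR adjusted p = 5.0e-05) and lay at the 99.9 percentile of all genes tested. Hpca had 12810 and 11350 normalized counts in the inputs against 40360 and 35300 in the IPs, a 2.89-fold difference (log2 change 1.53, SE 0.11, edgeR adjusted p = 9.7e-05). Both IP libraries stood well above both inputs for these synaptic calcium-handling proteins. Crym had 1713 and 1264 normalized counts in the inputs against 4750 and 3660 in the IPs, and its log2 change was 1.38 (SE 0.19, edgeR adjusted p = 0.00089). Chn1 had 16200 and 19100 normalized counts in the inputs against 33940 and 38180 in the IPs, with a log2 change of 0.91 (SE 0.11, edgeR adjusted p = 0.00061). Rbfox3 had 6349 and 5823 in the inputs against 12880 and 13040 in the IPs, with a log2 change of 0.97 (SE 0.088, edgeR adjusted p = 0.00020). The inputs and IPs did not overlap for any of these markers, though the share of all genes with inputs and IPs apart was not counted. In the edgeR fit, which uses TMM, Chn1 (1.88-fold) and Rbfox3 (1.96-fold) changed by somewhat under 2-fold. The ratios per mouse with DESeq2 size factors averaged 2.05-fold and 2.13-fold, so which side of 2-fold they fell on depended on the scaling.

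Among the transcription factors, Neurod2 had the highest enrichment, with 2298 and 1611 normalized counts in the inputs against 6512 and 5001 in the IPs (log2 change 1.44, SE 0.20, edgeR adjusted p = 0.0010). Its paralog Neurod6 had 1490 and 1352 normalized counts in the inputs against 2679 and 2620 in the IPs, with a log2 change of 0.78 (SE 0.096, edgeR adjusted p = 0.00060). Tbr1 had 2994 and 3271 in the inputs against 6823 and 7286 in the IPs, with a log2 change of 1.05 (SE 0.094, edgeR adjusted p = 0.00019). Input and IP libraries were apart for all of these factors, which is a description only, since the share of all genes apart in this way was not counted. Mef2c had 11120 and 13700 normalized counts in the inputs against 16440 and 19710 in the IPs, the smallest change of the 9 genes (log2 change 0.43, SE 0.14, edgeR adjusted p = 0.031). Scaled by total counts in place of TMM, Mef2c was no longer called (log2 change 0.15, adjusted p = 0.39), and the other members remained higher.

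**Figure D1:**
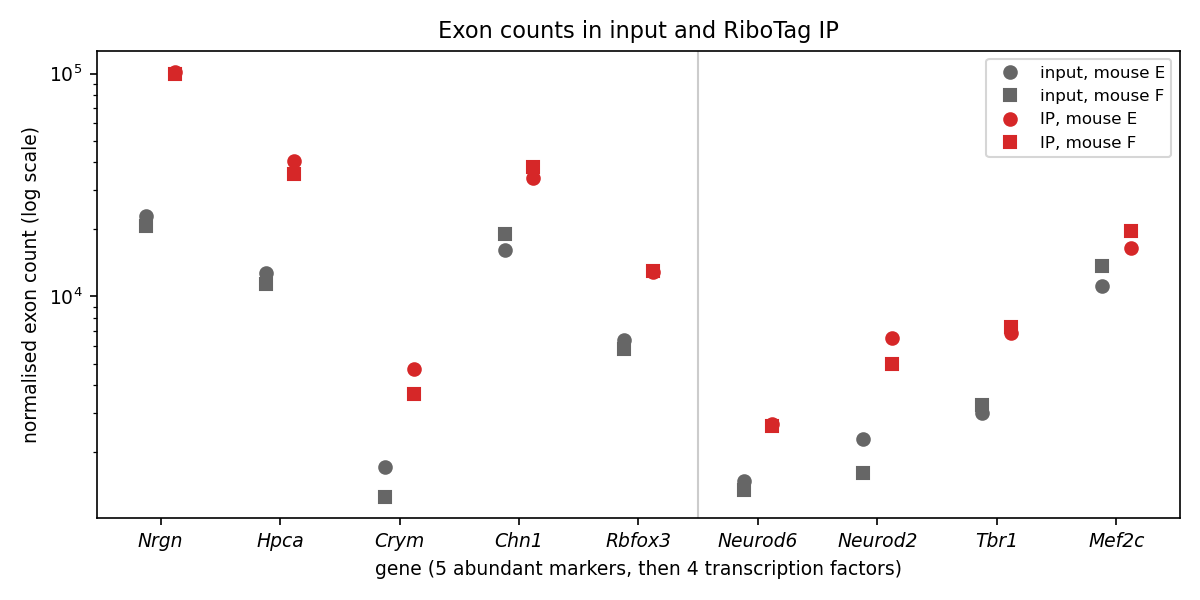
Normalized exon counts (log scale) of the 9 genes in input (grey) and IP (red) libraries of mouse E (circles) and mouse F (squares). Every IP point lies above both input points of its gene, from Nrgn (22860 and 20810 against 101800 and 99460) to Mef2c, where the groups are closest. The share of all genes with such a separation was not counted.

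Per mouse, the log2 ratio of IP to input had a median of 1.47 in mouse E and 1.53 in mouse F over the abundant markers, and of 1.02 and 1.06 over the transcription factors. The medians differed by 0.47 ± 0.017 (SD, n = 2 mice), which is a description of 5 against 4 genes and was not tested. The 2 groups of genes overlapped, since Neurod2 (1.57 ± 0.093, SD, n = 2) lay above Crym, Chn1 and Rbfox3, while Chn1 (1.03 ± 0.048) lay below Tbr1 (1.17 ± 0.023). With Rbfox3 left out, since it marks most neurons, the difference of medians was 0.54. In the order of per-mouse enrichment, Nrgn stood apart from Hpca, Hpca and Neurod2 differed by less than the spread of Neurod2 between the mice, and Rbfox3 and Chn1 lay within the spread of Rbfox3.

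The homogenate also held RNA of other cell types, and most lists of their markers were lower in the IP. All 10 markers of inhibitory neurons, 10 of astrocytes, 10 of oligodendrocytes, 6 of oligodendrocyte precursors and 10 of endothelium were lower in the IP, as were 9 of 10 microglial markers. The summed exon level of the astrocyte list was 6970 and 6950 CPM (counts scaled to the library total) in the input libraries of mice E and F and 882 and 984 in their IPs, and that of the oligodendrocyte list was 4170 and 3910 against 497 and 501. The inhibitory list fell from 1060 and 1110 CPM to 234 and 179, the microglial list from 479 and 469 to 43.8 and 45.6, and the endothelial list from 331 and 381 to 22.3 and 34.2. The striatal list did not move one way, with 1 of 10 markers higher, 2 lower and 7 not called, and summed to 1090 and 975 CPM in the inputs against 1240 and 877 in the IPs. Of 5 thalamic markers 3 were lower, and Slc17a6 was not called (log2 change 0.37). None of these lists' markers was at 0 on exons in any of the libraries. Of 12 excitatory markers, which include the 9 genes, 11 were higher in the IP and Camk2a was not called (log2 change 0.27, edgeR adjusted p = 0.11). More tagged cells and more ribosome-bound RNA per cell cannot be told apart in such pulldowns, and neither can fewer cells of a type and less RNA per cell in whole tissue.

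The region on which reads were counted changed the result for Mef2c. On CDS counts Mef2c was lower in the IP (log2 change −1.78, SE 0.13, edgeR adjusted p = 5.0e-06), the reverse of its direction on exons, while the other 8 genes remained higher. The raw CDS counts of Mef2c were 2409 and 3197 in the inputs against 421 and 402 in the IPs, whereas its exon counts were 12245 and 19462 in the inputs against 12349 and 17096 in the IPs. Per mouse, its log2 ratio of IP to input was −1.53 and −1.76 on CDS, 0.56 and 0.52 on all exons, and 0.33 and 0.23 on the part of the exons outside CDS. Far fewer of the Mef2c reads in the IPs than in the inputs thus lay on the protein-coding part.

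Tbr1 moved the same way to a lesser degree, with a log2 ratio of 0.65 and 0.37 on CDS against 1.19 and 1.16 on all exons. Nrgn moved in the opposite direction, with 2.54 and 2.74 on CDS, 2.15 and 2.26 on exons, and 1.69 and 1.76 outside CDS. Hpca (1.99 and 1.92 on CDS) and Crym (1.89 and 2.01 on CDS) also had higher ratios on CDS than outside it. Each region was scaled by its own size factors, so these ratios are relative to the other genes counted on that region. Neurod6 differed little between regions, with 0.89 and 1.02 on CDS and 0.85 and 0.95 on exons. On CDS the difference between the medians of markers and transcription factors was 1.18, against 0.47 on exons.

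**Figure D2:**
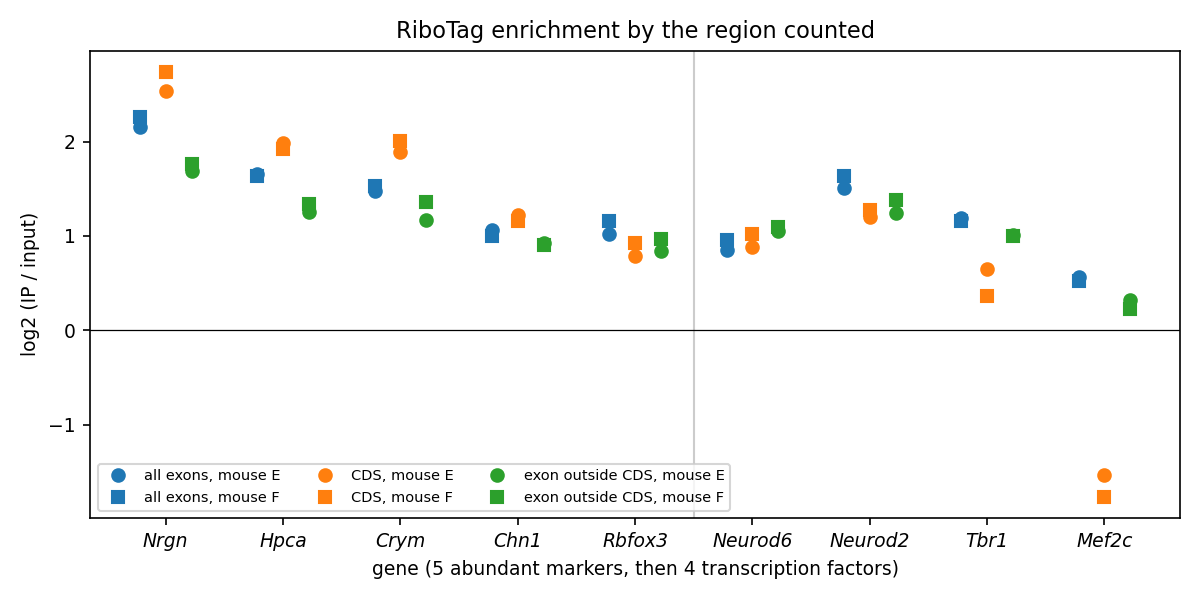
Log2 ratio of IP to input in mouse E (circles) and mouse F (squares) from reads on all exons (blue), on CDS (orange) and on exons outside CDS (green). The 3 regions are close for Chn1 and Neurod6, whereas Mef2c lies at −1.53 and −1.76 on CDS and above 0 on the others.

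The share of a gene's exon reads that fell on CDS does not depend on the scaling of each region. It was lower in the IP than in the input of each mouse for all 9 genes, Nrgn, Hpca and Crym included. A lower share was common among all genes. Crym, with a mean log2 change of the share of only −0.033, lay at the 80.3 percentile of 11851 genes. For Mef2c this share was 19.7% and 16.4% in the input libraries, 3.41% and 2.35% in the IPs and 11.9% to 13.5% in the RNA-Seq of mice A to D. For Tbr1 the inputs had 34.1% and 32.3% and the IPs 17.3% and 13.1%, and for Neurod2 31.5% and 30.7% against 18.8% and 16.7%. All the transcription factors had a lower share in both IPs than in both inputs, and so did the markers Rbfox3 (40.7% and 38.2% against 25.6% and 22.6%), Chn1 (61.7% and 60.6% against 50.8% and 47.1%) and Hpca (52.3% and 52.7% against 48.7% and 44.9%). The share changed less in the other markers, in Nrgn from 45.3% and 42.4% to 43.7% and 41.3%, and in Crym from 91.0% and 89.6% to 89.7% and 86.9%. The IP libraries as a whole had lower CDS shares, with a median over genes of 65.9% and 64.6% in the inputs against 50.4% and 46.9% in the IPs, against 62.7% to 64.0% in mice A to D. The log2 change of the share in Mef2c was −2.53 and −2.80 in mice E and F, at the 0.56 percentile of 11851 genes, where the median gene changed by −0.33.

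A test of CDS reads against the other exon reads between IP and input, added after these counts were seen, put the members beside the background. By edgeR's quasi-likelihood F-test over 9585 genes, 16.5% of genes had relatively more CDS reads in the IP than the normalization center and 16.9% fewer. Mef2c was the member with relatively fewer (log2 change −1.84, SE 0.19, edgeR adjusted p = 0.00029), and Tbr1 did not pass (−0.42, SE 0.16, edgeR adjusted p = 0.063). Nrgn (0.98), Hpca (0.74) and Crym (0.75) had relatively more, and the other 4 genes were not called. CDS and exon counts of a library share reads, so the other exon reads were taken as exon counts less CDS counts. The fit had no term for library or mouse. Its p-values therefore treat the CDS part and the other part of a library as independent samples, which they are not. Strict intersection leaves out reads that cross the border of a CDS. The parts of RNA quality, coverage along the transcript and transcript isoforms in these differences were not tested.

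**Figure D3:**
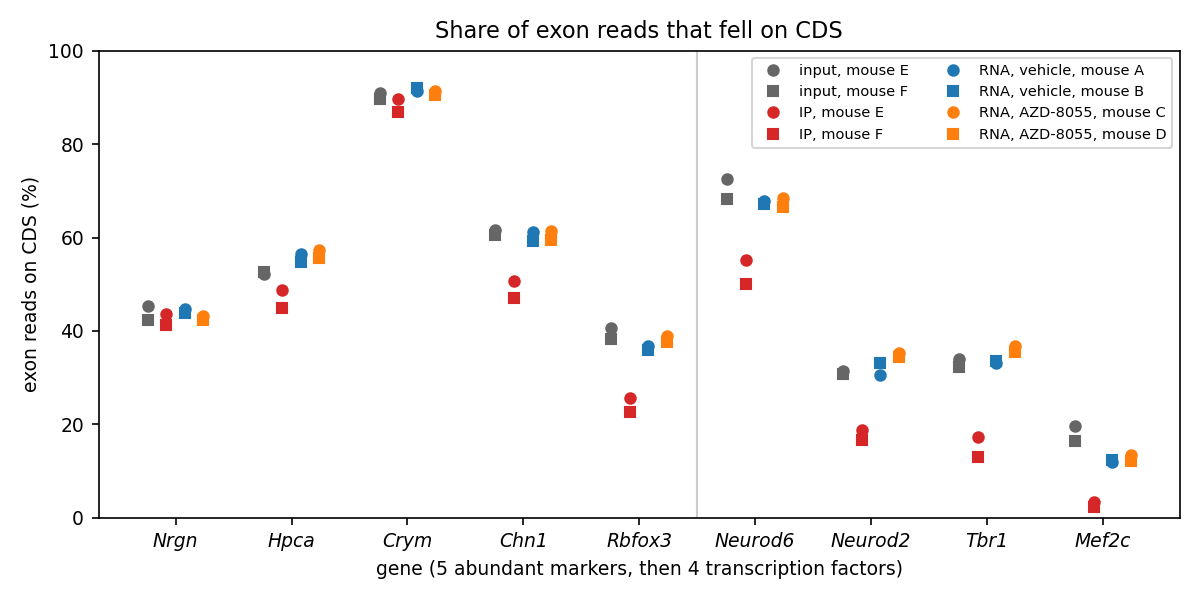
Percentage of each gene's exon reads that fell on CDS in the inputs (grey), IPs (red) and RNA-Seq libraries of vehicle (blue) and AZD-8055 mice (orange); circles and squares mark the 2 mice of a group. The share of Mef2c is the lowest of the 9 genes in every library, and it is 3.41% and 2.35% in the IPs.

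Translation efficiency (TE) was then taken as footprints over RNA on CDS in mice A and B, the control mice. Of the 9 genes, 3 were higher than the center that the normalization sets (edgeR quasi-likelihood F-test, adjusted p under 0.05 over 11797 genes) and 0 were lower, beside 36.5% of all genes higher and 37.3% lower. At an unadjusted p under 0.05 Neurod6 passed as well, beside 75.6% of all genes. DESeq2 also called 3 members and limma-voom 4. The transcription factors Mef2c and Tbr1 stood far above the center, Chn1 slightly above it, and the others near it. With the mouse as a block, 5 members were called, beside 4451 higher and 4523 lower of all 11797 genes. Neurod6 was then also higher (log2 TE 0.24, edgeR adjusted p = 0.019) and Rbfox3 lower (log2 TE −0.17, edgeR adjusted p = 0.022). Levels below are CDS counts divided by size factors over the 8 libraries of mice A to D.

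Mef2c had 663 and 605 normalized RNA counts in mice A and B and 4121 and 3403 normalized footprint counts. Its log2 TE in the edgeR fit was 2.61 (SE 0.094, adjusted p = 1.7e-12), a 6.12-fold excess of footprints at the 99.1 percentile of all genes. Tbr1 had 478 and 438 RNA counts and 1348 and 1238 footprint counts, with a log2 TE of 1.54 (SE 0.082, edgeR adjusted p = 1.2e-10) at the 95.1 percentile. Footprints exceeded RNA in both mice for these factors, and the values of the 2 mice were close. Neurod6 had 501 and 404 RNA counts and 565 and 471 footprint counts, with a log2 TE of 0.25 (SE 0.11, edgeR adjusted p = 0.052). Neurod2 had 295 and 329 RNA counts and 289 and 297 footprint counts, with a log2 TE of −0.06 (SE 0.11, edgeR adjusted p = 0.64). The NeuroD factors therefore lay near the center, apart from the other transcription factors.

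Among the markers, Nrgn had 6450 and 6278 normalized RNA counts and 6532 and 6842 footprint counts, with a log2 TE of 0.12 (SE 0.068, edgeR adjusted p = 0.13). Hpca had 5299 and 4814 RNA counts and 4489 and 4671 footprint counts (log2 TE −0.10, SE 0.071, edgeR adjusted p = 0.22). Crym had 1025 and 1008 RNA counts and 1069 and 1038 footprint counts (log2 TE 0.09, SE 0.075, edgeR adjusted p = 0.27). The most enriched markers in the RiboTag IP were thus near the center in TE. Chn1 had 6855 and 6011 RNA counts and 7790 and 6649 footprint counts (log2 TE 0.21, SE 0.077, edgeR adjusted p = 0.023), a call that was lost when mouse A (adjusted p = 0.071) or mouse B (adjusted p = 0.084) was left out, under total counts, without a filter and at a mean of 10 counts. Rbfox3 had 1327 and 1266 RNA counts and 1179 and 1052 footprint counts (log2 TE −0.17, SE 0.081, edgeR adjusted p = 0.068), and under those scaling and filter settings it was called lower, as was Hpca under total counts and without a filter.

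The median of log2 TE per mouse was 0.02 and 0.04 over the markers and 0.83 and 0.86 over the transcription factors in mice A and B. The difference was −0.82 in both mice, opposite in sign to the difference in RiboTag enrichment, and it was not tested. It does not describe every transcription factor, since Neurod2 (−0.09 ± 0.082, SD, n = 2) and Neurod6 (0.20 ± 0.032) had values like those of the markers. In the mice that received AZD-8055, Mef2c had a log2 TE of 2.53 and 2.53 and Tbr1 of 1.52 and 1.43, close to the values of the control mice.

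With RNA counted on exons in place of CDS, an alternative chosen after the data were seen, the log2 ratio of footprints to RNA fell for Mef2c from 2.64 and 2.49 to 0.36 and 0.28 in mice A and B. It then lay at the 64.7 percentile of all genes in place of the 99.4. For Tbr1 it fell from 1.495 and 1.498 to 0.70 and 0.72. Neurod2 moved to −0.95 and −0.95, Rbfox3 to −0.82 and −0.95, and Crym to 0.72 and 0.72. In that fit edgeR called 8 of the 9 genes, 5 higher and 3 lower, beside 4473 higher and 4732 lower of all 12382 genes. Nrgn was called lower (log2 −0.23, edgeR adjusted p = 0.0038), while Hpca was not called. The order of the 9 genes in TE therefore depended on the region used for RNA, although Mef2c and Tbr1 remained above the center in either fit.

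The genes share this with others, as a description across genes that are not independent. Over 9868 genes, log2 TE in mice A and B had a Pearson r of −0.41 and a Spearman rho of −0.41 with the CDS share of RNA-Seq reads in the same mice, where both contain the CDS count of RNA. With the log2 change of that share from input to IP in mice E and F, r was −0.37 and rho −0.30. The 317 genes with a CDS share under 15% in mice A and B, which include Mef2c, had a median log2 TE of 1.32 against 0.05 over all of these genes.

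**Figure D4:**
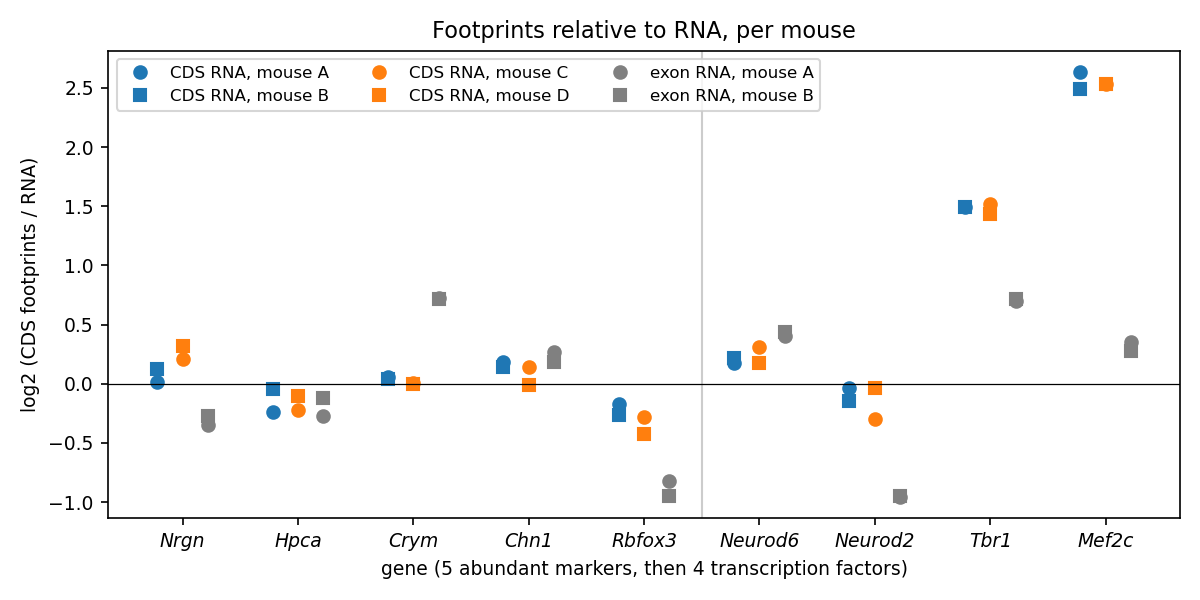
Log2 ratio of normalized CDS footprints to normalized RNA per mouse, with RNA counted on CDS in control mice A and B (blue) and AZD-8055 mice C and D (orange), and with RNA counted on exons in mice A and B (grey). Mef2c and Tbr1 stand above the other genes with CDS counts, and Mef2c drops from 2.64 and 2.49 to 0.36 and 0.28 with exon counts.

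Paralogs of the 9 genes showed how far each family moved together. In the Mef2 family, Mef2a (log2 change −1.67, edgeR adjusted p = 0.00019) and Mef2d (−0.63, edgeR adjusted p = 0.029) were lower in the IP while Mef2c was higher on exons, and Mef2b was too low to test. All the Mef2 genes tested, Mef2c included, were called above the center in TE, beside 36.5% of all genes. The log2 TE was 1.28 for Mef2a and 0.38 for Mef2d. In the NeuroD family the 3 genes tested, Neurod6 and Neurod2 included, were higher in the IP, beside 33.7% of all genes. Neurod1 was at 0.63 (edgeR adjusted p = 0.030), and Neurod4 was too low to test. Of the Rbfox splicing regulators, Rbfox1 was higher in the IP on exons (0.77) and Rbfox2 was not called (0.03). On CDS the mean log2 ratio of IP to input was 0.05 for Rbfox1, −0.89 for Rbfox2 and 0.86 for Rbfox3, so the values depended on the region counted. With RNA counted on CDS, Rbfox1 and Rbfox2 had a log2 TE over 1 (1.18 and 1.35), unlike Rbfox3. Of the Tbr1 relatives, Eomes (−0.43, edgeR adjusted p = 0.66) and Tbx21 (0.73, edgeR adjusted p = 0.54) were at low counts and were not called.

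All 6 neuronal calcium sensors tested were higher in the IP on exon counts, beside 33.7% of all genes, from Ncs1 (0.60) to Hpca (1.53), with Hpcal1 at 1.20, Ncald at 1.03, Vsnl1 at 0.96 and Hpcal4 at 0.65. On CDS the mean log2 ratio of IP to input was −0.58 for Hpcal4, 0.04 for Ncs1 and 0.30 for Ncald, so that the direction of Hpcal4 depended on the region counted. In TE 5 of these 6 were higher, beside 36.5% of all genes, with Hpcal4 at 1.86, Ncald at 1.60, Vsnl1 at 1.52, Hpcal1 at 0.52 and Ncs1 at 0.49, while Hpca was not called. Hippocalcin was thus the most enriched of its family and the one with the lowest log2 TE. Of the genes grouped with Nrgn for their calmodulin-binding motif, Gap43 (1.11) and Pcp4 (1.48) were higher in the IP and Pcp4l1 was not called (−0.53, edgeR adjusted p = 0.058). Chn2, the paralog of Chn1, was lower in the IP (−0.80, edgeR adjusted p = 0.0022).

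Wider lists of the same kinds of gene, which hold none of the 9, were also counted. Of 36 other transcription factors of excitatory neurons, 13 were higher in the IP and 8 lower, beside 33.7% of all genes higher and 35.7% lower, with a median log2 change of 0.21. Emx1 (1.83), Pou3f1 (1.48) and Lmo4 (1.23) were highest, and Mef2a, Tshz2 (−1.52) and Zfpm2 (−0.88) lowest. Of 40 other markers of excitatory neurons, 32 were higher and 1 lower, against the same shares of all genes, with a median of 0.74. Cck (2.24), Cabp1 (1.88) and Itpka (1.79) were highest, and Rasgrf1 (−0.51) was the one that was lower. The medians of both lists were below those of the corresponding members, and the median over all genes was −0.03.

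In TE, 20 of the 35 transcription factors tested were higher and 7 lower, with a median log2 TE of 0.38, and 20 of the 40 markers were higher and 11 lower, with a median of 0.34, against −0.01 over all genes, of which 36.5% were higher and 37.3% lower. Rorb (4.07), Nfib (2.25) and Nfia (2.13) were highest among the factors and Lhx2 (−1.72), Tshz2 (−1.55) and Cux2 (−1.12) lowest. Camk4 (2.54), Epha4 (1.97) and Rgs4 (1.97) were highest among the markers and Ddn (−3.42), Ppp1r1a (−1.26) and Cabp1 (−1.17) lowest. The 2 lists had similar medians in TE, unlike the 9 genes.

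The treatment with AZD-8055 asks whether inhibition of mTOR for 1 h changes RNA, footprints or TE. In RNA, 0 of the 9 genes were called by edgeR's quasi-likelihood F-test (adjusted p under 0.05 over 12182 genes), beside 0.0575% of all genes higher and 0.0903% lower. In footprints 0 of 9 were called over 10695 genes, beside 0.0468% higher and 0.982% lower. In the change of TE, tested as an interaction over both kinds of library, 0 of 9 were called over 11797 genes, beside 0.0763% higher and 0.788% lower. DESeq2 and limma-voom also called 0 members in all of these comparisons. At an unadjusted p under 0.05 there were 3 members in RNA (Hpca, Rbfox3 and Tbr1), 2 in footprints (Nrgn and Tbr1) and 0 in TE. Over all genes, the share at an unadjusted p under 0.05 was 8.24% in RNA, 12.8% in footprints and 6.75% in TE.

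For Nrgn, normalized footprint counts were 6532 and 6842 in vehicle mice and 7684 and 8387 in AZD-8055 mice, and RNA counts were 6450 and 6278 against 6662 and 6711. The groups did not overlap in either, though neither change was called, and the share of all genes with groups apart was not counted. The log2 change of footprints was 0.27 (SE 0.076, edgeR adjusted p = 0.19) and that of TE 0.20 (SE 0.096, edgeR adjusted p = 0.74). Without mouse C, whose footprint library was the smallest (3503873 CDS counts against 4551357 to 9259938 in the others), Nrgn was called in footprints (log2 change 0.35, edgeR adjusted p = 6.7e-06) and so was Hpca (0.23, edgeR adjusted p = 0.039). That fit compares mouse D alone with mice A and B, its spread comes from the latter, and it called 837 genes in all against 110 with mouse C.

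Tbr1 had 478 and 438 normalized RNA counts in vehicle mice and 563 and 515 in AZD-8055 mice, and its footprint counts were 1348 and 1238 against 1611 and 1390. Its log2 change was 0.21 in RNA (SE 0.083, edgeR adjusted p = 0.52) and 0.21 in footprints (SE 0.083, edgeR adjusted p = 0.33), so that the change of TE was −0.02 (SE 0.12). Hpca had 5299 and 4814 RNA counts against 5743 and 5659, and 4489 and 4671 footprint counts against 4928 and 5275. The 2 groups of mice were apart for Tbr1 and Hpca in both kinds of library, though neither gene was called. How many of all genes had groups apart in this way was not counted, so the separation is a description only. Rbfox3 had 1327 and 1266 RNA counts against 1591 and 1474 (log2 change 0.22, SE 0.073, edgeR adjusted p = 0.39), and overlapping footprint counts of 1179 and 1052 against 1312 and 1101.

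The other members had groups that overlapped in RNA, footprints or both. Crym had 1025 and 1008 RNA counts against 1177 and 1051, and 1069 and 1038 footprint counts against 1183 and 1049. Chn1 had 6855 and 6011 RNA counts against 7049 and 6713, and 7790 and 6649 footprint counts against 7782 and 6673. Mef2c, which had the highest TE of the 9 genes with RNA counted on CDS, had 663 and 605 RNA counts against 749 and 660, and 4121 and 3403 footprint counts against 4334 and 3823. None of these genes differed by more than the spread between mice in both kinds of library. Neurod2 had 295 and 329 RNA counts against 360 and 343, and 289 and 297 footprint counts against 293 and 334. Neurod6 had 501 and 404 RNA counts against 475 and 436, and 565 and 471 footprint counts against 588 and 491.

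The log2 changes of TE lay between −0.13 (Rbfox3) and 0.20 (Nrgn), with SEs of 0.096 to 0.16. In RNA the median log2 change was 0.11 over the markers and 0.14 over the transcription factors, in footprints 0.11 and 0.12, and over all genes it was −0.003 and 0.001. The wider lists had medians of 0.090 (markers) and 0.068 (transcription factors) in RNA, and 0 of their genes were called in RNA, footprints or TE. Levels of some cell type lists also differed between these mice. The astrocyte, oligodendrocyte, oligodendrocyte precursor, microglial and endothelial lists overlapped between vehicle and AZD-8055 mice on exons. The astrocyte list, for instance, summed to 6240 and 6590 CPM in mice A and B and to 6240 and 6100 in mice C and D. The excitatory list includes the 9 genes, so its level partly repeats their own changes. Its summed exon level was 8430 and 8350 CPM in mice A and B and 9000 and 8640 in mice C and D. That of the inhibitory list was 1350 and 1350 against 1390 and 1440. That of the striatal list was 1780 and 1740 against 1980 and 2090, and that of the thalamic list was 140 and 168 against 98.6 and 120. The part of tissue composition in the small differences of the members was not tested.

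**Figure D5:**
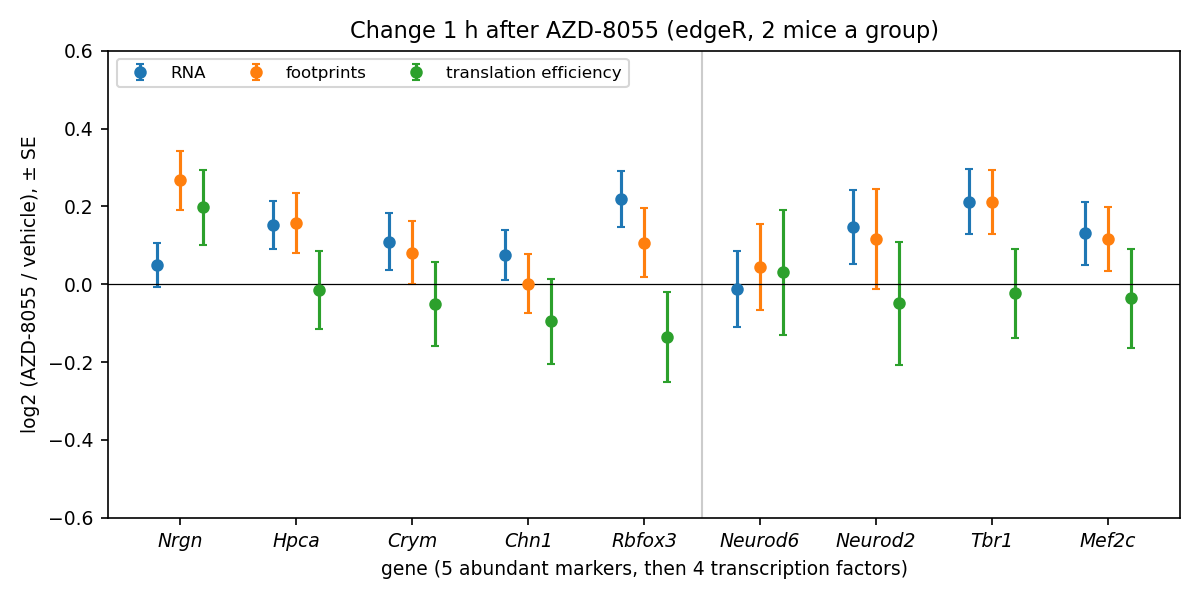
Log2 change (± SE from edgeR, 2 mice a group) of RNA (blue), footprints (orange) and TE (green) from vehicle to AZD-8055 for the 9 genes. All TE changes lie between −0.13 and 0.20, and none passed the adjusted threshold.

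As a description of likeness over the 12 libraries, the genes whose log2 CPM on CDS followed the mean standardized profile of the abundant markers most closely were Grcc10, BC005624, Ufc1, Cox8a and 2210016L21Rik, with Pearson r of 0.986 to 0.989 among 12014 genes. The markers' own r with that profile was 0.967 for Nrgn, 0.964 for Hpca, 0.950 for Crym, 0.909 for Chn1 and 0.773 for Rbfox3. Each member, marker or transcription factor, is part of the profile of its group, which raises its own r beside that of other genes. The genes most like the mean profile of the transcription factors were Slc25a22, Ak5, Fam212b, Ociad2 and Glt8d2, with r of 0.893 to 0.928. The factors' own r was 0.694 for Tbr1, 0.646 for Neurod6, 0.355 for Mef2c and 0.317 for Neurod2, so that their mean profile described none of them closely. Libraries of the same mouse or kind of assay share sources, and the values are not tests.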

How the data were processed

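The deposited values are raw read counts per gene symbol, which the authors did not normalize, on CDS (12 libraries) and exons (the 8 RNA-Seq libraries), aligned to mm10 according to the submitters' processing notes. The authors trimmed footprint reads, used Bowtie2 to discard rRNA, TopHat2 for alignment and HTSeq for counting by strict intersection (versions not given in the sources used here). RNA-Seq was poly(A)-selected and the counting strand is not given in the sources used here, so reads of overlapping antisense genes cannot be told apart. Totals were 16796999 to 27878212 counts on exons, 9309496 to 15585831 on CDS in RNA-Seq and 3503873 to 9259938 in footprints. Replicate libraries differed by more than counting error (chi-square per degree of freedom 2.61 to 17.4). Date-like symbols (27) held 0.35% of CDS counts and were kept.

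Groups follow the labels. Genes that averaged 37 or more counts per library were tested with edgeR 4.0.16 (TMM, quasi-likelihood F-test, two-sided, Benjamini-Hochberg over all genes, threshold 0.05) in R 4.3.3. Per-mouse ratios used DESeq2 1.42.0 size factors. DESeq2, limma 3.58.1 (voom), other scalings and filters, exon or CDS counts, the mouse as a block and leaving out each mouse were alternatives. RiboDiff, which the study used, was not run. The procedures were tested on simulated data. Mouse letters pair libraries from the same animal: across genes, deviations from the group means correlated at 0.25 (A and B), 0.24 (C and D) and 0.56 (E and F). With 2 mice a group, p-values rest on spread shared across genes.

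The 9 genes and all lists were chosen with earlier results of these data known. All 9 genes are named, list genes only as the highest and lowest 3 among those called, with all paralogs tested and the 5 genes most like each profile. Upstream sequences came from RefSeq (GRCm38.p6), which gave 8 of the 9 genes. Motifs were searched with Python 3.11.15 and figures drawn with matplotlib 3.10.9.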

Additional observations from a re-analysis of the deposited data

How the results depend on the processing

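All members remained higher in the RiboTag IP with DESeq2, limma-voom, DESeq2 size factors, other filters, the mouse as a replicate block and shared spread (9 called each). Under total counts 8 were called, and these moved the median of all genes by −0.28 and the share of higher among called genes from 48.5% to 33.6%. All members also remained higher with either mouse left out. Those fits compared the IP and input of the remaining mouse and took their spread from the RNA-Seq libraries of mice A to D. On CDS all 9 were called, with Mef2c reversed (−1.78), beside 4455 higher and 4766 lower of all 12211 genes. With a fold over 2, 5 members and 4433 genes were called in the IP, 3638 genes in TE, 36 in the TE change, 36 in footprints and 4 in RNA. Under the block, 5 members were called in TE, and the paired fits changed no other count of members. For TE, total counts moved the median of all genes by −0.14, and Nrgn (−0.021) and Crym (−0.045) changed sign. The TE calls of members went from 3 higher and 0 lower to 2 and 2 under total counts, 2 and 2 without a filter and 2 and 1 at a mean of 10 counts. With exon RNA, 8 members were called, Nrgn turned to −0.23, and the difference of medians moved to −0.56. That difference was −0.79 without Rbfox3 and −0.86 in mice C and D, and the difference in enrichment was 1.18 on CDS and 0.54 without Rbfox3. The causes of these shifts were not tested.

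For the drug, RNA calls over all genes were 29 with total counts and 78 without a filter, and footprint calls 264 without a filter. Uncalled values near 0 changed sign. In the TE change these were Hpca (0.023), Tbr1 (0.014) and Mef2c (0.0014) under total counts, Neurod6 (−0.015) without a filter, and Neurod2 (0.066), Tbr1 (0.075) and Mef2c (0.029) with exon RNA. In RNA it was Neurod6 on exons (0.013), and in footprints Chn1 with limma-voom (−0.011), without a filter (−0.028) and at a mean of 10 counts (−0.0057). With each mouse left out in turn, calls over all genes ranged from 56 to 77 in TE change, 13 to 36 in RNA and 64 to 837 in footprints (the last without mouse C, and 265 without mouse D), and members called in footprints from 0 to 2 (2 without mouse C). Ranges of the members that changed sign were, in TE, −0.22 to 0.029 for Hpca, in TE change −0.14 to 0.11 for Hpca, −0.077 to 0.017 for Mef2c, −0.21 to 0.090 for Neurod2, −0.0075 to 0.089 for Neurod6 and −0.047 to 0.0055 for Tbr1. In RNA they were −0.0046 to 0.17 for Chn1 and −0.15 to 0.14 for Neurod6, and in footprints −0.087 to 0.087 for Chn1, −0.016 to 0.22 for Neurod2 and −0.060 to 0.15 for Neurod6. No paired fit was possible for RNA and footprints alone, since the groups hold different mice.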
